A study of Oryza sativa Japonica Group with 4 samples.

Results

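The genes described here are the SPL, GRF and TCP growth regulators of rice, 3 families of plant transcription factors, in the lamina joint of the leaf-angle mutant ila1 and of its wild type. Members were the genes whose symbol or synonym in the RefSeq gene table of rice, with a leading Os dropped, reads SPL, GRF, PCF or TCP followed by a number, where PCF is the older rice name of TCP factors. The rule found 35 genes by name. Of these, 2 carry an SPL name as spotted leaf (lesion mimic) genes and belong to other families, so they were kept out of the counts and are given at the end. Of the 33 growth regulators left, 29 were read by probe sets paired with exactly 1 gene, among 17905 genes so paired on the array. These were 10 GRF genes with 11 probe sets, 12 SPL genes with 16 and 7 TCP genes with 9. SPL5, SPL10, SPL11 and SPL13 had no such probe set and were not analysed here.

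Transcripts were measured with the 1-colour Rice Genome Array of Affymetrix, where 1 or several probe sets stand for a gene. The ila1 group (2 arrays) was the mutant with an increased leaf angle, whose affected gene is known to encode a Raf-like MAP kinase kinase kinase. The ZH11 group (2 arrays) was the wild type Zhonghua11, a japonica cultivar. Both groups were lamina joints, the hinge between leaf blade and sheath, taken at the tillering stage, and the titles number the arrays of each group as biological replicates. The sources name neither the allele nor how many plants went into a replicate. The p-values therefore measure the spread between these samples, and the number of arrays limits every value. The median signal was 53.56 and 53.61 on the ila1 arrays, against 55.96 and 57.90 on the ZH11 arrays. The mean signal was also lower in ila1, at 301.7 and 305.1, against 344.7 and 346.1 in ZH11. Within a bulk joint, fewer cells of a type and less RNA per cell cannot be told apart.

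SPL factors bind DNA through the SBP box, and many of them are held down by the microRNA miR156, which sets the pace of the juvenile to adult change and of branching. GRF factors work with GIF coactivators to keep leaf and stem cells dividing, and miR396 cuts their transcripts. TCP factors fall into class I, which in rice includes the PCF1 and PCF2 proteins that bind the promoter of the DNA replication gene PCNA, and class II, part of which is held down by miR319 and restrains growth at leaf margins. In grasses the SPL gene LIGULELESS1, listed here as SPL8, is needed to form the ligule and auricle and so the lamina joint itself.

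In the ila1 joints, 4 growth regulators fell: GRF4, GRF1, GRF3 and the class I TCP gene PCF2. GRF4 fell most, to a signal of 179.7 ± 4.55, against 795 ± 67.3 in ZH11 (SD, n = 2 each), and PCF2 came next. No SPL gene and no other TCP gene passed the test, and no member of any family rose past it. GRF5 had the largest positive value of the set, just short of the threshold. Of the 26 probe sets of growth regulators that were tested, 4 were lower and 0 higher at a limma adjusted p under 0.05 (10 had an unadjusted p under 0.05). The share of 15.4% called was close to that of all 34355 tested probe sets, of which 15.1% were called, 10.4% as lower and 4.71% as higher. The set as a whole therefore did not stand out by its number of calls. The other 10 probe sets lay among the 40% with the lowest signal and were not tested.

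The plot of log2 fold changes sets the 23 tested genes side by side, with 1 probe set for each gene, the one with the highest mean signal. All fold changes are differences, ila1 minus ZH11, of log2(signal + 16), a scale that understates the change of low signals. Values below 0 were read for 16 genes and values above 0 for 7. Over all tested probe sets, 58.4% were below 0 and the median was -0.07.

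**Figure D1:**
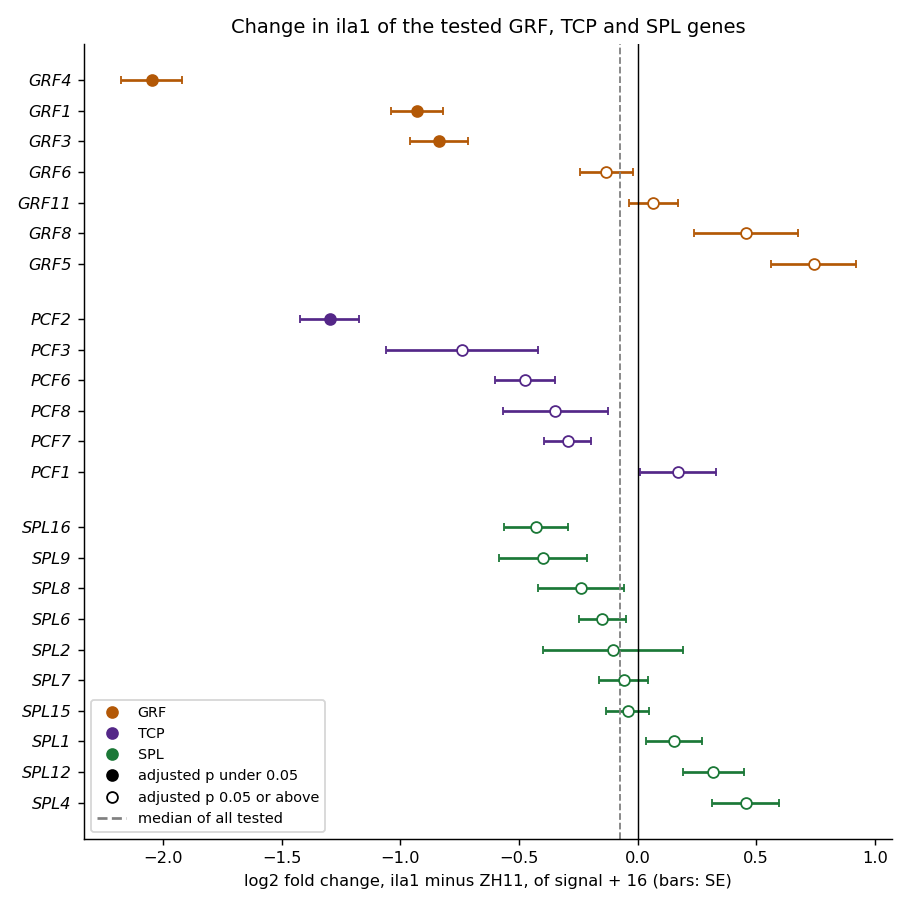
Log2 fold change, ila1 minus ZH11, of the 23 tested growth regulator genes (horizontal axis; bars are the SE of the limma fit), by family. Filled points had a limma adjusted p under 0.05, and the dashed line is the median of all tested probe sets (-0.07): GRF4, GRF1, GRF3 and PCF2 stand to the left, the SPL genes lie between -0.43 and 0.46.

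The GRF family held the widest range, from -2.05 for GRF4 to 0.74 for GRF5. Of 7 tested GRF genes 3 fell, 0 rose and 4 did not pass, and the family median of -0.13 lay between the 2 sides. The share called was 42.9%, against 15.1% of all tested probe sets, but it rests on 7 probe sets and was not tested. GRF4, also known as GS2 and GL2, promotes grain length and width and the uptake of nitrogen. Its probe set read 183 and 176.5 on the ila1 arrays, against 748 and 843 on the ZH11 arrays. Both mutant arrays lay far below both wild-type arrays, and every mutant array was at least 2-fold below every wild-type array. The fall was 4.14-fold (log2 fold change -2.05 ± 0.13 SE, limma adjusted p = 0.00301). On the scale of signal + 16, GRF4 and PCF2 were the 2 of 26 tested probe sets at least 2-fold lower in all 4 such pairs, against 4.26% of all tested probe sets. With nothing added to the signal, a setting chosen after seeing the data, there were 3, GRF1 being the other, against 4.75% of all tested probe sets.

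GRF1, which was first described as a gibberellin-induced gene of the rice stem, read 49.5 and 55.3 in ila1, against 114 and 115 in ZH11. The ZH11 arrays were almost equal and the ila1 arrays close to each other, with no overlap. GRF1 fell 1.91-fold (log2 fold change -0.93 ± 0.11, limma adjusted p = 0.01). GRF3 read 644 and 587 in ila1, against 1160 and 1062 in ZH11, again with the groups apart. It fell 1.79-fold (log2 fold change -0.84 ± 0.12, limma adjusted p = 0.017).

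GRF5 and GRF8 had values in the other direction. GRF5 read 173 and 237 on the ila1 arrays, against 119 and 111 on the ZH11 arrays. Both ila1 arrays were the higher ones, but they differed from each other by 0.41 on the log2 scale, and the log2 fold change of 0.74 ± 0.18 just missed the threshold (limma adjusted p = 0.055). It passed as higher under the 3 other scalings of the arrays, with adjusted p from 0.0247 to 0.0495. GRF8, known in rice for a role in defence against the brown planthopper, read 230 and 328 in ila1, against 221 and 173 in ZH11. The groups were apart by only a small gap, and the log2 fold change of 0.46 ± 0.22 did not pass (limma adjusted p = 0.211). It was 0.70 without ila1 replicate 1 and 0.22 without ila1 replicate 2.

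GRF11 read 1137 and 1117 in ila1, against 1059 and 1093 in ZH11, at a log2 fold change of 0.07 with a 95% interval from -0.20 to 0.34. The arrays of both genotypes were close together here, and the interval leaves out a fall of the size seen for GRF1 or GRF3. GRF6, which promotes branching of the panicle, read 55.6 and 46.4 in ila1, against 54.9 and 59.6 in ZH11, and the groups overlapped (log2 fold change -0.13, 95% interval -0.43 to 0.16). GRF7, whose overexpression narrows the leaf angle in rice, GRF10 and GRF12 were too dim to be tested. Their 4 probe sets read between 6.88 and 25.9 in ila1 and between 10.2 and 38.8 in ZH11. Both GRF10 probe sets read lower on the ila1 arrays, at 21.8 and 18.8 on 1 of them, against 27.1 and 38.8 in ZH11.

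**Figure D2:**
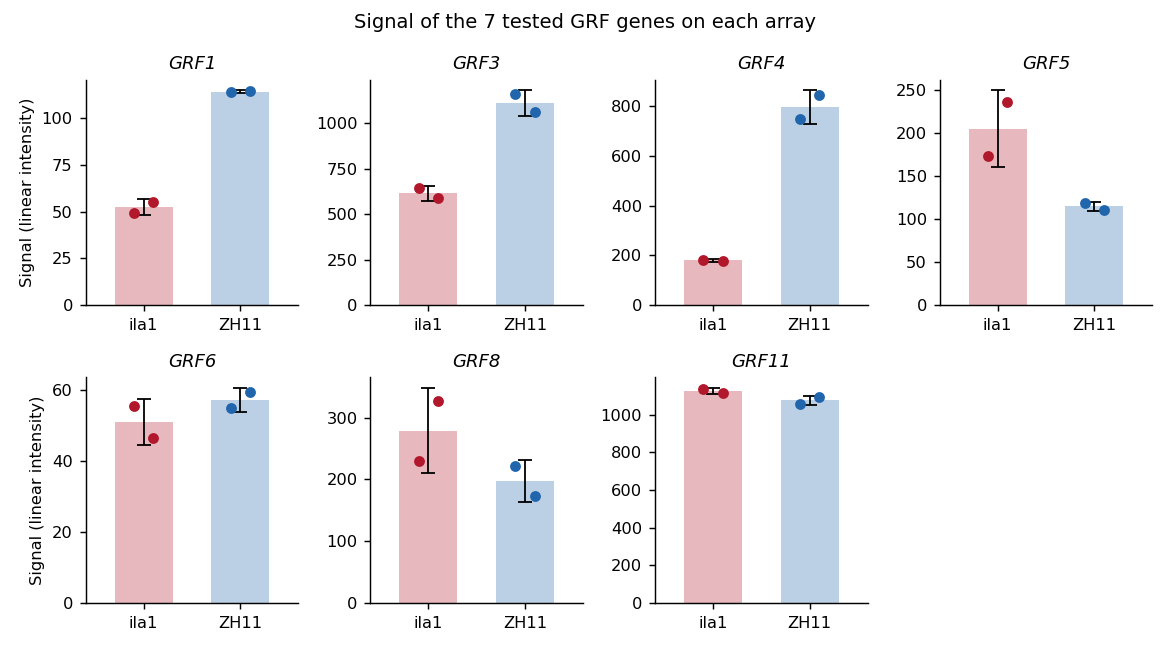
Signal (linear intensity, vertical axis from 0) of the 7 tested GRF genes in ila1 (red, left) and ZH11 (blue, right); points are arrays, bars the mean and error bars the SD (n = 2 each). GRF1, GRF3 and GRF4 lie lower on both ila1 arrays, GRF5 and GRF8 higher, and GRF6 overlaps; vertical scales differ between genes.

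Of 6 tested TCP genes, PCF2 fell, none rose and 5 did not pass, with a family median of -0.41 against -0.07 over all tested probe sets. The share called, 16.7%, was close to the 15.1% of all tested probe sets. PCF2, a class I factor that binds the PCNA promoter in rice, read 309 and 280.5 in ila1, against 760.45 and 733 in ZH11. The replicates of each genotype were close together and the genotypes far apart. PCF2 fell 2.46-fold (log2 fold change -1.30 ± 0.12, limma adjusted p = 0.00617). PCF1, the other factor known to bind that promoter, read 119 and 137 in ila1, against 98.7 and 126 in ZH11. The groups overlapped, and the log2 fold change of 0.17 had a 95% interval from -0.25 to 0.59, which leaves out a fall as large as that of PCF2. Another PCF1 probe set was too dim to be tested, at 55.3 and 21.2 in ila1, against 23.1 and 19.1 in ZH11. PCNA itself read 771 and 683 in ila1, against 564 and 587 in ZH11, higher on both mutant arrays without passing (log2 fold change 0.33 ± 0.13, limma adjusted p = 0.142).

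PCF3, the other class I gene, read 113 and 225 in ila1, against 257 and 303 in ZH11. Both ila1 arrays were below both ZH11 arrays, but the ila1 arrays were 0.90 apart on the log2 scale, and the log2 fold change of -0.74 ± 0.32 did not pass (limma adjusted p = 0.176). Fits that leave out an ila1 array show how far 1 array sets this value: it was -1.19 without ila1 replicate 2 and -0.29 without ila1 replicate 1.

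PCF6, PCF7 and PCF8 are class II factors and known targets of miR319 in rice, and all 3 had values below 0. PCF6 read 72.8 and 63.8 in ila1, against 94.1 and 108 in ZH11 (a log2 fold change of -0.47 ± 0.13, limma adjusted p = 0.0699). PCF7 read 56.7 and 57.8 in ila1, against 76.8 and 71.1 in ZH11 (a log2 fold change of -0.30 ± 0.10, limma adjusted p = 0.113). In both genes the mutant arrays lay below the wild-type arrays, by less than the test requires. PCF8 read 45.6 and 62.1 in ila1, against 57.6 and 89.9 in ZH11, with overlapping groups (limma adjusted p = 0.318). This PCF8 probe set is of a type that can read related transcripts. A second one was too dim to be tested, at 8.40 and 5.04 in ila1, against 5.72 and 8.54 in ZH11. PCF5, another miR319 target, was too dim to be tested, at 34.9 and 23.5 in ila1, against 30.9 and 31.8 in ZH11.

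**Figure D3:**
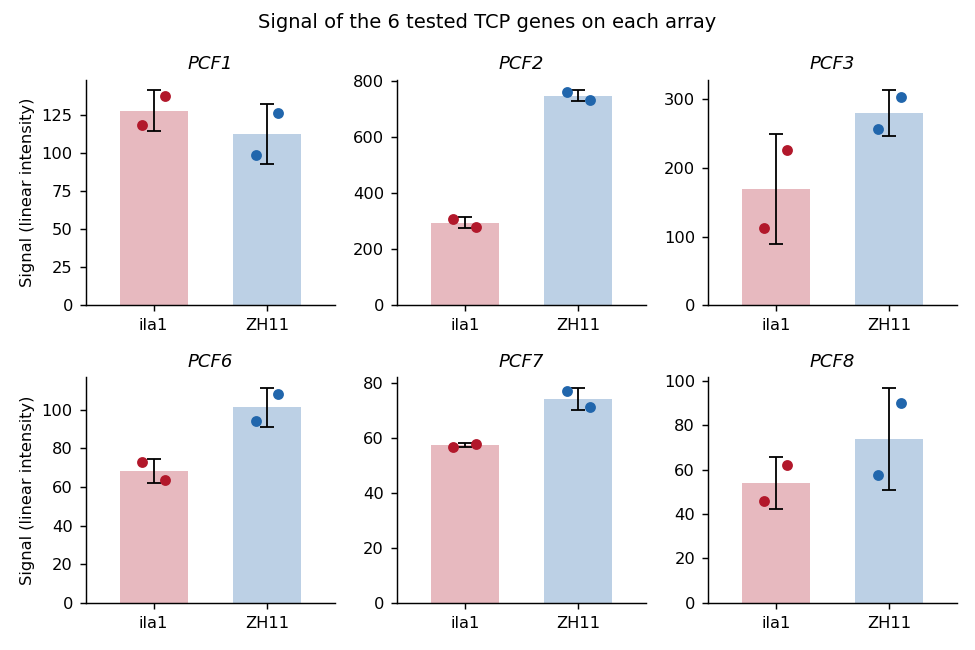
Signal (linear intensity, vertical axis from 0) of the 6 tested TCP genes in ila1 (red, left) and ZH11 (blue, right); points are arrays, bars the mean and error bars the SD (n = 2 each). PCF2 is far lower on both ila1 arrays, PCF3, PCF6 and PCF7 are lower by smaller margins, and PCF1 and PCF8 overlap; vertical scales differ between genes.

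None of the 13 tested SPL probe sets, for 10 genes, passed the limma test (0 of 13, with 3 at an unadjusted p under 0.05). Over all tested probe sets 15.1% were called. Their log2 fold changes ran from -0.43 to 0.46 with a median of -0.08, next to -0.07 over all tested probe sets. SPL8, the LIGULELESS1 gene, read 318 and 234 in ila1, against 312 and 340 in ZH11. It was thus read well above the low-signal limit in both genotypes. The groups overlapped, and the 95% interval of its log2 fold change, -0.71 to 0.23, leaves out a fall of 2-fold or more.

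SPL genes that are known miR156 targets in rice had values on both sides of 0. SPL4, a gene of grain size, was read by 4 probe sets. The probe set with the highest signal read 182 and 149 in ila1, against 113 and 118 in ZH11 (a log2 fold change of 0.46 ± 0.14, limma adjusted p = 0.0948). A second read 137 and 114 in ila1, against 87.2 and 92.2 in ZH11 (0.41 ± 0.13, limma adjusted p = 0.103). Both put ila1 higher without passing, whereas another, of a type that can read related transcripts as the first is, overlapped between genotypes, at 92.8 and 90.5 in ila1 and 78.9 and 108 in ZH11. The last one was too dim to be tested, at 26.2 and 22.6 in ila1, against 14.6 and 13.5 in ZH11. With no filter on low values it passed as higher (limma adjusted p = 0.0429), and the gene's probe sets disagree on size.

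SPL12 read 663 and 626 in ila1, against 484 and 545 in ZH11 (a log2 fold change of 0.32 ± 0.13, limma adjusted p = 0.154). SPL16, which is GW8, a promoter of grain width, read 52.8 and 39.6 in ila1, against 65.1 and 69.5 in ZH11 (a log2 fold change of -0.43 ± 0.14, limma adjusted p = 0.0984). The groups did not overlap in either gene, with ila1 the higher in SPL12 and the lower in SPL16. Of the tested SPL genes SPL2 varied most between the mutant arrays, at 265 and 470 in ila1, against 340 and 427 in ZH11, so that its 95% interval ran from -0.87 to 0.66. SPL7 read 40.9 and 46.6 in ila1, against 43.4 and 49.0 in ZH11, with overlap.

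SPL14, the Ideal Plant Architecture gene IPA1 that limits tillering and thickens the stem, was too dim to be tested. It read 28.1 and 38.9 in ila1, against 42.1 and 51.4 in ZH11. SPL18, a gene of grain number and size, was not tested for the same reason, at 19.7 and 21.1 in ila1, against 21.5 and 19.2 in ZH11.

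SPL1, SPL15, SPL6 and SPL9 are not targets of miR156. SPL1 read 1249 and 1097 in ila1, against 1060 and 1044 in ZH11, and SPL15 read 2995 and 3272 in ila1, against 3213 and 3237 in ZH11. SPL6, which protects the rice panicle from endoplasmic reticulum stress, was lower on both ila1 arrays on each of its probe sets. The brighter one read 1445 and 1409 in ila1, against 1594 and 1575 in ZH11, and its log2 fold change of -0.15 ± 0.10 did not pass (limma adjusted p = 0.332). SPL9, known for a role in antiviral defence in rice, read 711 and 992 in ila1, against 1083 and 1144 in ZH11, a log2 fold change of -0.40 ± 0.19 that did not pass (limma adjusted p = 0.2). It was -0.63 without ila1 replicate 2 and -0.16 without ila1 replicate 1. With 1 ila1 array left out the spread comes from the ZH11 pair alone. SPL2, SPL4, SPL8, SPL9, SPL12, SPL16, PCF3, PCF6, GRF5 and GRF8 gained a call in at least 1 such fit. Calls over all tested probe sets rose in these fits too, so these passes do not set the members apart. With arrays set to the hybridization controls the values of SPL15, SPL6 and SPL8 turned to above 0, while the median of all tested probe sets moved to 0.15.

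Counting arrays alone, the genotypes did not overlap for 18 of 26 tested probe sets of growth regulators, 7 higher and 11 lower in ila1. This is 69.2%, and the same was true of 67% of all tested probe sets, 26.4% higher and 40.6% lower. All 4 non-overlapping TCP probe sets were lower, whereas the GRF probe sets split into 3 higher and 3 lower and the SPL probe sets into 4 and 4. Over the 23 genes, the median absolute log2 difference was 0.184 within the ila1 pair and 0.0936 within the ZH11 pair. Over all tested probe sets these medians were 0.177 and 0.104. The TCP genes went the other way, with medians of 0.172 within the ila1 pair and 0.2 within the ZH11 pair.

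Genes that act with these families were read from lists named by symbol. Of 14 named partners and regulators, 3 had a probe set and none passed. The 14 include GIF1, which was not read because that name belongs to another gene or is not settled. The nearest was GSK2, the brassinosteroid-pathway kinase that in rice holds back GRF4 protein activity, at 1079 and 602 in ila1, against 378 and 324 in ZH11 (a log2 fold change of 1.17 ± 0.29, limma adjusted p = 0.0621). It was higher on both mutant arrays, which differed from each other, and it passed as higher under the 3 other scalings and with the replicate block (limma adjusted p from 0.0338 to 0.0489). Its value was 0.76 without ila1 replicate 1, 1.58 without ila1 replicate 2, 1.27 without ZH11 replicate 1 and 1.06 without ZH11 replicate 2. With either ZH11 array left out it did not pass. The DELLA protein gene SLR1, a brake on gibberellin growth that binds GRF4, read 195 and 228 in ila1, against 255 and 242 in ZH11 (limma adjusted p = 0.311). The strigolactone receptor gene D14 overlapped between genotypes.

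Among 5 measured genes downstream of SPL factors or of miR172, the 1 that rose was RSR1, an AP2-type gene that represses starch synthesis. It read 340 and 476 in ila1, against 133 and 175 in ZH11 (a log2 fold change of 1.31 ± 0.22, limma adjusted p = 0.0242), on a probe set of a type that can read more than 1 transcript. The MADS-box genes MADS15 and MADS34, which mark the turn to flowering, fell. MADS15 read 52.7 and 94.1 in ila1, against 491 and 445 in ZH11 (a log2 fold change of -2.47 ± 0.25, limma adjusted p = 0.00699). That probe set is of a type that can read related transcripts. Other MADS15 probe sets also passed as lower, at -2.41 and -1.84, and another was too dim to be tested. MADS34 read 48.3 and 123 in ila1, against 338 and 271 in ZH11 (-1.75 ± 0.39, limma adjusted p = 0.0455), a call lost under the 3 other scalings and with a pseudocount of 1 (limma adjusted p from 0.0506 to 0.0517). MADS14 passed as lower on 1 of its 4 probe sets (-2.26 ± 0.28, limma adjusted p = 0.0116). Its brightest read 586 and 1609 in ila1, against 3004 and 3113 in ZH11, and did not pass (limma adjusted p = 0.0802). All 4 probe sets were lower on both ila1 arrays, with log2 fold changes from -2.26 to -1.64. MADS18 read 1001 and 1553 in ila1, against 1745 and 1799 in ZH11, and did not pass (a log2 fold change of -0.50 ± 0.22, limma adjusted p = 0.185). It was -0.81 without ila1 replicate 2 and -0.19 without ila1 replicate 1. The median of the list was -1.64, beside -0.07 over all tested probe sets, but most of its measured genes are MADS-box genes. The list was chosen with earlier results of these data known, so no conclusion is drawn from its median. None of 3 tested class I KNOX genes, which keep meristem cells undifferentiated, and none of 6 genes of the microRNA pathway passed. The calls of RSR1, MADS15, MADS34 and MADS14 were each lost without ZH11 replicate 1 or without ZH11 replicate 2. Most calls over all tested probe sets were lost in those fits too.

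Markers of other cells were read for the same arrays. Of the lamina joint markers only SPL8 was bright enough to be tested, and LG2 and NL1 lay under the limit. The summed signal of 3 photosynthesis genes was 13429 and 19815 in ila1, against 17680 and 18421 in ZH11, and that of 5 cell division genes 863 and 778 in ila1, against 669 and 689 in ZH11. Only 2 genes of each list were bright enough to be tested, and none of those passed. The 2 tested photosynthesis genes went opposite ways, which their sum hides. On its brightest probe set RBCS read 8860 and 10531 in ila1, against 8173 and 8377 in ZH11. CAB2R read 4562 and 9277 in ila1, against 9498 and 10034 in ZH11. PCNA made up most of the division sum, and the other 4 genes summed to 92.3 and 94.5 in ila1, against 105 and 102 in ZH11. Of these 4 only CYCB2-1 was bright enough to be tested. It overlapped between genotypes, at 48.1 and 54.3 in ila1, against 56.1 and 46.7 in ZH11. Of 6 secondary wall genes only the xylan gene IRX14 fell (log2 fold change -0.69 ± 0.12, limma adjusted p = 0.0255), with a summed signal of 2257 and 2352 in ila1, against 2810.3 and 2812.8 in ZH11. Without IRX14 the other 5 genes summed to 1570 and 1579 in ila1, against 1642 and 1604 in ZH11. IRX14 lost its call after quantile normalization (limma adjusted p = 0.0592) and with arrays set to the hybridization controls (limma adjusted p = 0.0679). It also lost it without either ZH11 array, where most calls over all tested probe sets were lost. None of the markers was listed at 0. The division sum without PCNA, which holds dim genes that were not tested, and both wall sums were lower on the ila1 arrays. The mean signal of all probe sets was lower there too. The wall gene BC1 was higher on both ila1 arrays, at 230 and 213, against 202 and 165 in ZH11. What part these markers had in the falls of GRF4, GRF1, GRF3 and PCF2 was not tested. The sums without 1 gene were chosen after seeing the data.

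The 4 falls kept their direction under every alternative in which the gene was tested. Their calls rest on the pair of ZH11 arrays, as most calls over all tested probe sets do, so this does not set them apart. GRF4 read from -2.14 to -1.80 over these alternatives, PCF2 from -1.36 to -1.05, GRF1 from -1.11 to -0.61 and GRF3 from -0.90 to -0.58. GRF1 was not tested with the lowest 60% left out, where the other 3 were called. With ZH11 replicate 1 left out the limma adjusted p was 0.0645 for GRF4, 0.113 for PCF2, 0.102 for GRF1 and 0.205 for GRF3, and with ZH11 replicate 2 left out it was 0.0707, 0.109, 0.108 and 0.184 in the same order. In these fits the spread comes from the ila1 pair alone. GRF3 also lost its call when arrays were set to the hybridization controls (limma adjusted p = 0.0618).

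**Figure D4:**
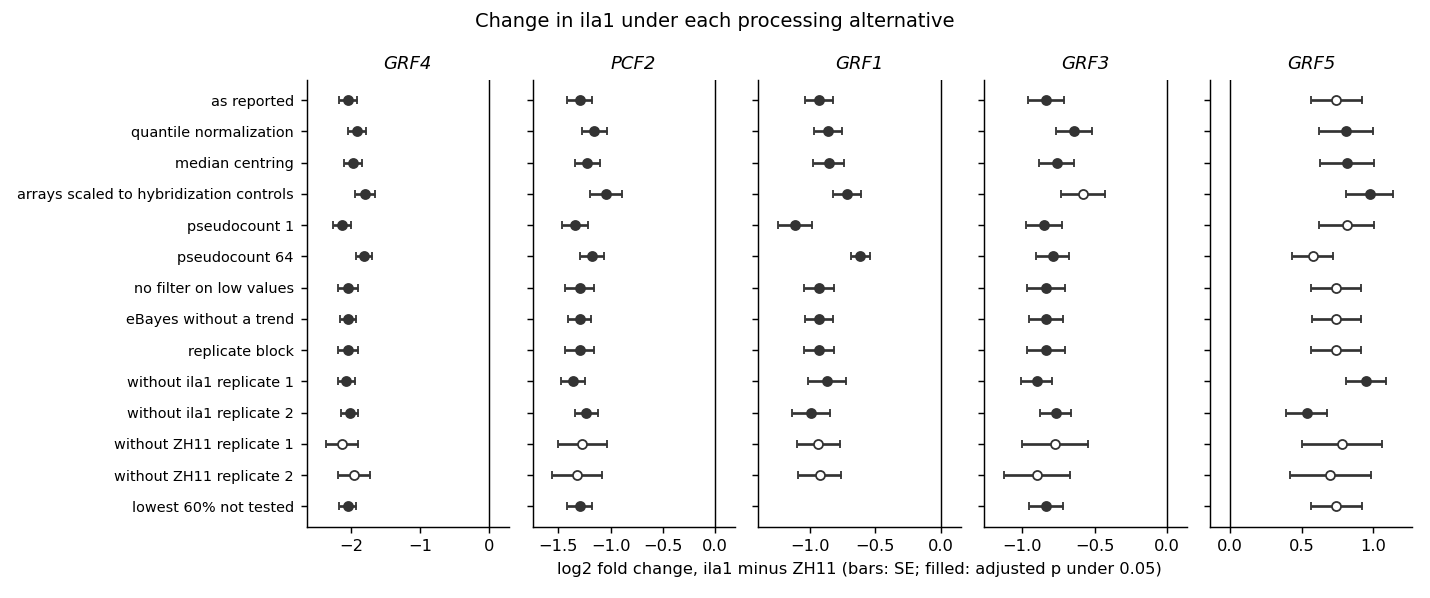
Log2 fold change, ila1 minus ZH11 (horizontal axis; bars are SE), of GRF4, PCF2, GRF1, GRF3 and GRF5 under each processing alternative (rows). Filled points had a limma adjusted p under 0.05: every value shown keeps its side of 0, GRF1 has none with the lowest 60% not tested, no gene passes without a ZH11 array, and GRF5 passes under the 3 other scalings and without an ila1 array.

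The 2 spotted leaf genes that share the SPL name are named for lesions on the leaf. Spl7, the heat stress transcription factor HSFA4D, read 1332 and 1027 in ila1, against 2679 and 2132 in ZH11, and fell 2.03-fold (log2 fold change -1.02 ± 0.18, limma adjusted p = 0.0285). This call was lost after quantile normalization (limma adjusted p = 0.0594) and with arrays set to the hybridization controls (limma adjusted p = 0.0737). It was also lost without ZH11 replicate 1 or ZH11 replicate 2, where most calls over all tested probe sets were lost. Spl11, a U-box ubiquitin ligase that holds back cell death, read 2420 and 2367 in ila1, against 2405 and 2512 in ZH11, with overlapping groups.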

How the data were processed

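For each of 57381 probe sets the authors deposited a linear intensity on every array. The labels' protocols name TRIzol for the RNA and the standard Affymetrix method for the biotinylated cRNA. What software summarised or scaled the arrays is not given in the sources used here. Affymetrix controls (123) were left out, 16 was added, log2 was taken, and probe sets among the lowest 40% by mean log2 value were not tested. The test was limma's (version 3.58.1, under R 4.3.3), two-sided, by lmFit with only genotype in the model and eBayes with a trend, with Benjamini-Hochberg adjustment over all 34355 tested probe sets and a threshold of 0.05. The 95% intervals use the same fit. The fit was also run on simulated data with equal spread in both genotypes. The real pairs differed in spread, so no conclusion is drawn from that run. Python 3.11.15, pandas 2.3.3 and matplotlib 3.10.9 handled tables and plots.

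Gene names came from the platform annotation and the RefSeq gene table of assembly ASM3414082v1. That table served for naming alone. No sequences were used here, and the planned split of families by microRNA site peptides was not made. List names that belong to another gene or are not settled (GIF1, FC1, IDS1, a second BC1 and BOP1) were dropped from the lists. The members and lists were chosen with earlier results of these data known. Every member gene is named, in full where it passed on any probe set. Alternatives were 3 other scalings (quantile, median centring and 9 hybridization controls), other pseudocounts (1 and 64), other filters, no trend, a replicate block, and leaving out each array. No source says that the shared replicate numbers pair the arrays.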

Additional observations from a re-analysis of the deposited data

How the results depend on the processing

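With only 2 arrays a genotype, limits come from the number of arrays, and dim probe sets (SPL14, GRF7, GRF10, GRF12) from their signal. Over 23 genes and 13 alternatives, 252 of 292 values kept direction and call, 9 lost a call, 14 gained one and 17 changed sign. No called gene changed sign. GRF1, GRF6, SPL7, SPL16, PCF6, PCF7 and PCF8 were not tested with the lowest 60% left out. Without 1 array in turn, the count of all probe sets called ran from 22 to 14800 (higher 5 to 6380, lower 17 to 8420) and that of growth regulators from 0 to 11 (higher 0 to 4, lower 0 to 7), each lone array assumed to vary like the other group. Calls went up where an ila1 array was left out and down where a ZH11 array was. In all tested probe sets 2926 were called higher after quantile normalization, and 3507 higher and 2215 lower with arrays set to the hybridization controls, against 1619 and 3572 as reported; the lower calls after quantile normalization numbered 2863. Growth regulators called higher numbered 1 after quantile normalization, median centring and scaling to hybridization controls, which was GRF5, and 1 with no filter, a probe set of SPL4. The cause was not tested. Counting the spotted leaf genes gave 5 calls, all lower.

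The replicate numbers are shared by the genotypes, and the deviations of same-numbered arrays correlated at 0.103 over probe sets, which with 2 pairs does not establish a pairing. With the replicate block 4 growth regulators were called (GRF4, GRF1, GRF3 and PCF2, all lower), and GSK2 gained a call.

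Family medians moved by more than their spread between ila1 arrays as follows. The GRF median was 0.069 with arrays set to the hybridization controls and 0.066 with the lowest 60% not tested. The SPL median was 0.059 after quantile normalization and 0.14 with arrays set to the hybridization controls. The TCP median was -0.20 with arrays set to the hybridization controls, -0.27 with a pseudocount of 64 and -0.74 with the lowest 60% not tested, where 3 genes remained. With hybridization controls the median of all tested probe sets was 0.15, against -0.07 as deposited. Without 1 array, the SPL median ran from -0.13 to 0.016, the TCP median from -0.59 to -0.29 and the GRF median from -0.23 to -0.033.

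Signs changed as follows, none of them in a gene called as reported. After quantile normalization SPL15 read 0.19, SPL2 0.0088, SPL6 0.11, SPL7 0.0022, D14 0.15, Spl11 0.23 and a dimmer SPL4 probe set 0.059. With median centring SPL15 read 0.030, SPL7 0.014, Spl11 0.035 and that SPL4 probe set 0.060. With arrays set to the hybridization controls GRF6 read 0.069, SPL15 0.22, SPL2 0.14, SPL6 0.11 (0.047 on its dimmer probe set), SPL7 0.13, SPL8 0.0071, SLR1 0.020, D14 0.17, Spl11 0.22 and that SPL4 probe set 0.21. Without 1 array in turn SPL15 ran from -0.11 to 0.021, SPL2 from -0.50 to 0.29, SPL7 from -0.13 to 0.011, D14 from -0.45 to 0.28 and that SPL4 probe set from -0.21 to 0.18.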
